A study of Rattus norvegicus with 244 samples.

Results

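The glucocorticoid receptor target genes described here are Fkbp5, Sgk1, Tsc22d3, Klf9, Pdk4, Cdkn1a, Arrdc2 and Bcl6. The list was set by gene name, with earlier results of these arrays known, and holds 8 of the 10969 genes that the 3 array types (called A, B and C) name by a single symbol. The 8 genes have 15 of the 26202 probe sets, and each gene was read from its brightest probe set on average, with the other 7 as a check. The other probe sets of Fkbp5, Tsc22d3 and Pdk4 were too dim to be tested in either region, and Sgk1, Arrdc2 and Bcl6 have no other. Only Klf9 and Cdkn1a thus had a tested check. Its values are given for some comparisons, and elsewhere a result rests on the brightest probe set. Fkbp5, Tsc22d3, Pdk4 and Bcl6 were read on type C, Sgk1, Klf9 and Cdkn1a on type A, and Arrdc2 on type B.

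RNA came from the raphe, a brainstem region that includes serotonin neurons projecting to the spinal cord, and from the somatomotor cortex, which also sends axons to the cord, of rats (84 samples, 41 of raphe and 43 of cortex, on 244 arrays). The study set a moderate spinal cord injury against a sham operation, given as laminectomy (opening of the vertebra) for the raphe and as sham surgery for the cortex. The tissue therefore lay at a distance from the injured cord. In each region the groups were naive rats with no operation (4 samples), sham rats at 4 h, 24 h, 7 d, 14 d, 28 d and 3 months (2 samples at each time) and injured rats at the same times (4 samples at each time). Sham samples at 30 min (1 of raphe and 2 of cortex) and 72 h (1 of cortex) had no injured counterpart and entered no comparison. Type C held 3 naive raphe samples, and type A held 1 raphe sham sample at 3 months. The labels give no strain, sex or age, and do not say whether samples were separate animals, so p-values measure only the spread between these samples. Raphe arrays of naive and sham rats are labelled as raphe magnus and those of injured rats as raphe, so in every raphe comparison of injured with naive or sham samples the injury and what was dissected cannot be told apart.

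Glucocorticoid hormones, which the adrenal cortex releases in stress, bind a receptor that is held in the cytoplasm by HSP90 and its co-chaperones. The bound receptor enters the nucleus and binds response elements in DNA, and these target genes then change within hours in many tissues, the brain included. Fkbp5 encodes an HSP90 co-chaperone that lowers the hormone affinity of the receptor, and Tsc22d3 encodes the leucine zipper protein GILZ, which restrains inflammatory transcription factors. Sgk1 encodes a kinase that controls ion channels and transporters, and Pdk4 a kinase that shuts off pyruvate dehydrogenase. Klf9 and Bcl6 encode zinc finger transcription factors, Bcl6 a repressor. Cdkn1a encodes the cell cycle inhibitor p21, which p53 also induces, and Arrdc2 an arrestin-domain protein.

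To show the sequence before the starts of genes compared at 4 h, the 250 bases before their annotated starts were read from RefSeq (build GRCr8, 12 starts for the 8 genes, all matched by symbol). The palindromic response element, searched as AGAACA, any 3 bases and then the reverse complement of AGAACA, was in 0 of the 12 windows and in 0.012 percent of all 33469 windows of this length. Its 6-base part AGAACA, searched on both strands, was also in 0 of the 12 and in 17.5 percent of all windows. Since so few of all windows hold the full element, 0 of 12 cannot tell these genes from others. Only these exact letters within 250 bases were searched, so elements that vary from them or lie farther away were not read. The GC box GGGCGG was in 6 of the 12 (30.5 percent of all windows), the motif CCAAT in 6 (34 percent) and TATAAA in 3 (12.9 percent), each on either strand. The windows of Fkbp5, Arrdc2 and Klf9, each of which passed the test in 5 of the 6 comparisons of 4 h samples with naive or later ones, and the Sgk1 window with both a TATAAA and GC boxes are shown 5′ to 3′ on the strand of the gene, with matches to the GC box, CCAAT and TATAAA on either strand in capitals. They lie at chr20:6543556-6543805 (minus strand), chr16:18635633-18635882 (plus strand), chr1:230126396-230126645 (plus strand) and chr1:24804832-24805081 (minus strand).
Fkbp5: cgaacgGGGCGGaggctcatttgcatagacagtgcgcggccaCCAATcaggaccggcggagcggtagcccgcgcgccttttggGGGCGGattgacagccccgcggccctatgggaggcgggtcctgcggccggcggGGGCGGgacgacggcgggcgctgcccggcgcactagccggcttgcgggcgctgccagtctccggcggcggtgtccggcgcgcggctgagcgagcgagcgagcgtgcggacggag
Arrdc2: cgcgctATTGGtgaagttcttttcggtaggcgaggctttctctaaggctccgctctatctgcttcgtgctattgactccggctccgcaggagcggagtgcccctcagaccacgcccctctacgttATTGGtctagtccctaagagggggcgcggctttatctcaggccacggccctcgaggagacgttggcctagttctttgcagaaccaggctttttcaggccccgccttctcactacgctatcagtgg
Klf9: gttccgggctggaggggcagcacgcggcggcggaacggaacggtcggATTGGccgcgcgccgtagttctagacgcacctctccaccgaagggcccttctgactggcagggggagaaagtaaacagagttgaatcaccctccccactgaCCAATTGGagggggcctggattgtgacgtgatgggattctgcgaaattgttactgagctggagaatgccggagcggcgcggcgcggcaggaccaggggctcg
Sgk1: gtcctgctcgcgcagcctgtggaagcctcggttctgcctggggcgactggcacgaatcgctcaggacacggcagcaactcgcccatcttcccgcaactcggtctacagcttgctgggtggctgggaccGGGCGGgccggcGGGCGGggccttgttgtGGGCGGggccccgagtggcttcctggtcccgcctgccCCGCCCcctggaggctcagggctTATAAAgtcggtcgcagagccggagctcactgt
The 4 windows differ in these letters: the Fkbp5 window holds GC boxes and a CCAAT, the Arrdc2 and Klf9 windows hold CCAAT motifs only, and the Sgk1 window holds GC boxes and a TATAAA. A match is a description of letters, and binding was not measured.

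Values are given as log2(signal + 32), a scale that draws differences of dim genes towards 0, and are compared only within a probe set. A difference passed where its adjusted p, from limma with Benjamini-Hochberg adjustment over all probe sets tested in the region, was under 0.05. Differences are given ± their standard error. A set of 5 samples that stood apart from the rest were kept, and each result of a member that changes without them is given both ways. Replicate 1 of injured raphe at 4 h had 3′ to 5′ actin ratios of 29.09, 46.18 and 93.29 on types A, B and C, against at most 2.72 on any other array, a sign of broken RNA. Replicate 1 of sham raphe at 3 months, with arrays of types B and C only, had a mean of 9.59 over the 2 cortical neuron markers on those types, against 6.85 to 8.55 in the other 38 raphe samples and 8.89 to 11.21 in 40 cortex samples. Replicate 1 of sham cortex at 3 months had a mean of 9.88 over 7 of 9 cortical neuron markers, against 10.82 to 11.55 in the other cortex samples and 7.20 to 7.71 in raphe. On the 1 serotonin neuron marker of types B and C it stood at 9.57, above the 7.41 to 8.57 of the other cortex samples. Replicate 1 of sham raphe at 3 months stood at 8.38 on this marker and the other 39 raphe samples at 6.88 to 10.615. That range spans the cortex range, so the marker does not set the regions apart. Whether arrays of these 2 sham samples at 3 months were exchanged was not tested, so values from them may not belong to the labelled region. Replicate 2 of sham cortex at 14 d and replicate 2 of injured cortex at 7 d had raised low ends, with 5th percentiles of signal of 44.85 to 66.08 and 29.77 to 35.67, against at most 26.14 on other arrays. The mean over 6 of 7 serotonin neuron markers was 8.13 to 9.09 in raphe and 7.30 to 8.75 in cortex, so these ranges overlap, while the cortical neuron markers set the regions apart.

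Before any operation, Tsc22d3 was higher and Klf9 lower in raphe than in cortex, and no other member passed. Naive raphe samples had Tsc22d3 levels of 11.33, 11.29 and 10.89, and naive cortex samples 10.11, 10.29, 10.30 and 10.22. The ranges do not overlap, and the difference was 0.94 ± 0.19 (adjusted p = 0.00017). Klf9 stood at 10.05, 10.62, 10.53 and 9.87 in naive raphe and at 11.37, 11.63, 11.52 and 11.42 in naive cortex. It was 2.32-fold lower in raphe (-1.22 ± 0.23, adjusted p = 4.3e-05), and a second Klf9 probe set gave -0.99 (adjusted p = 0.0068). Of all probe sets, 14.2 percent passed in this comparison, so 2 of 8 members lies near that share. The difference was -0.96 for Fkbp5 (adjusted p = 0.15) and 0.01 for Sgk1 (adjusted p = 0.99).

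In the raphe 4 h after a sham operation, Arrdc2 and Klf9 rose against naive samples, and all 8 members lay above 0. Arrdc2, the arrestin-domain gene, stood at 9.51, 8.42, 8.73 and 9.70 in naive samples and at 11.47 and 11.56 in sham samples. This is a 5.38-fold rise (2.43 ± 0.45, adjusted p = 0.023). Klf9 reached 11.85 and 11.77 in sham samples, above every naive sample, and rose 2.91-fold (1.54 ± 0.32, adjusted p = 0.049). The 2 of 8 members that passed compare with 0.0855 percent of all probe sets tested, and the median difference over the members was 1.92 against 0.00 over all probe sets. Pdk4, the pyruvate dehydrogenase kinase gene, had the largest estimate without passing (2.72 ± 0.70, adjusted p = 0.14), from 7.07, 6.69 and 5.47 in naive to 9.02 and 9.24 in sham samples. Fkbp5 was at 7.25, 6.99 and 7.40 in naive and at 9.65 and 9.72 in sham samples (2.47 ± 0.59, adjusted p = 0.10). Its ranges were apart too, as were those of Sgk1, which stood at 9.07, 9.94, 9.62 and 8.98 in naive and at 11.35 and 11.97 in sham samples (2.26 ± 0.57, adjusted p = 0.13). Cdkn1a (1.58, adjusted p = 0.18), Bcl6 (0.80, adjusted p = 0.71) and Tsc22d3 (0.34, adjusted p = 0.91) did not pass. Klf9 fell short of the threshold with quantile normalization (1.43, adjusted p = 0.061), with no filter (adjusted p = 0.064) and with 1 added before log2 (adjusted p = 0.050). With the replicate number as a block neither Klf9 (adjusted p = 0.10) nor Arrdc2 (adjusted p = 0.074) passed. The calls also turn on single samples. Without the 5 samples, 6 members passed, all but Tsc22d3 and Bcl6 (0.492 percent of all probe sets). Without replicate 1 of injured raphe at 4 h alone, which shares only the spread of this fit, Sgk1 (adjusted p = 0.0087) and Pdk4 (adjusted p = 0.015) passed beside Arrdc2 and Klf9. Arrdc2 no longer passed without either sham sample (adjusted p = 0.13 and 0.29) or without naive replicate 2 or 3 (adjusted p = 0.061 and 0.066). Klf9 no longer passed without either sham sample (adjusted p = 0.28 and 0.36) or without naive replicate 1, 3 or 4 (adjusted p from 0.066 to 0.11).

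In the raphe 4 h after injury, 6 of the 8 members rose against naive samples, where 6.24 percent of all probe sets passed. Arrdc2 stood at 13.25, 11.85, 10.18 and 11.36 in the injured samples, above all naive samples (2.57 ± 0.37, 5.93-fold, adjusted p = 0.00018). Fkbp5 stood at 9.31, 10.43, 8.42 and 10.002 (2.33 ± 0.50, adjusted p = 0.0070), also with no overlap with naive samples. Tsc22d3, the GILZ gene, reached 13.02, 11.90, 11.66 and 12.06 against 10.89 to 11.33 in naive samples (0.99 ± 0.21, adjusted p = 0.0074). Klf9 (1.51, adjusted p = 0.0012), the p21 gene Cdkn1a (1.86, adjusted p = 0.0022) and the repressor gene Bcl6 (1.28, adjusted p = 0.020) rose as well. The replicate with broken RNA had the highest injured value of Arrdc2, Tsc22d3, Klf9 and Cdkn1a and the lowest of Sgk1, Pdk4 and Bcl6. Sgk1 stood at 8.08 there and at 11.45, 9.89 and 11.66 in the other injured samples, and Pdk4 at 5.40 against 9.24, 7.79 and 8.88. With all samples neither passed (Sgk1 0.87, adjusted p = 0.25, and Pdk4 1.42, adjusted p = 0.13). Without that replicate all 8 members passed (7.81 percent of all probe sets), with Sgk1 at 1.60 (adjusted p = 0.0081), Pdk4 at 2.23 (adjusted p = 0.0054), Klf9 at 1.10 and Arrdc2 at 2.04. Bcl6 no longer passed without naive replicate 2, its lowest naive sample at 6.77 (adjusted p = 0.19). Other probe sets did not pass with all samples included. A second Klf9 probe set gave 0.38 (adjusted p = 0.33) and the dimmest one, above the 40th percentile on 8 of 39 raphe arrays, lay on the other side at -0.61 (adjusted p = 0.59). The second Cdkn1a probe set gave 0.41 (adjusted p = 0.54). In raphe, 14 of 39 type C arrays had Fkbp5 and 15 of 39 had Pdk4 above the 40th percentile of their array, and 0 of 3 naive arrays did for either gene. Both were thus tested through the groups where they were high. The mean over 6 of 10 choroid plexus markers was 7.84 to 8.32 in these 4 injured samples, 7.25 and 8.79 in sham and 6.71 to 7.62 in naive samples. The mean over 8 of 11 blood cell markers was lower in operated samples, at 10.36 to 10.74 in injured and 10.15 and 10.72 in sham against 10.81 to 11.42 in naive samples. That over 10 microglia and macrophage markers was 9.39 to 9.68 in injured and 9.76 and 9.82 in sham against 9.69 to 9.83 in naive samples. Sham samples at 4 h also lay below naive ones on 10 endothelial markers, at 8.86 and 8.90 against 9.03 to 9.16. On 7 of 9 cortical neuron markers they stood at 7.20 and 7.24 against 7.415 to 7.66. Injured samples at 4 h overlapped naive ones on these last lists. The part of all these markers in the raphe results at 4 h was not tested. In bulk tissue a change in the number of cells of a type and a change in RNA per cell cannot be told apart.

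**Figure D1:**
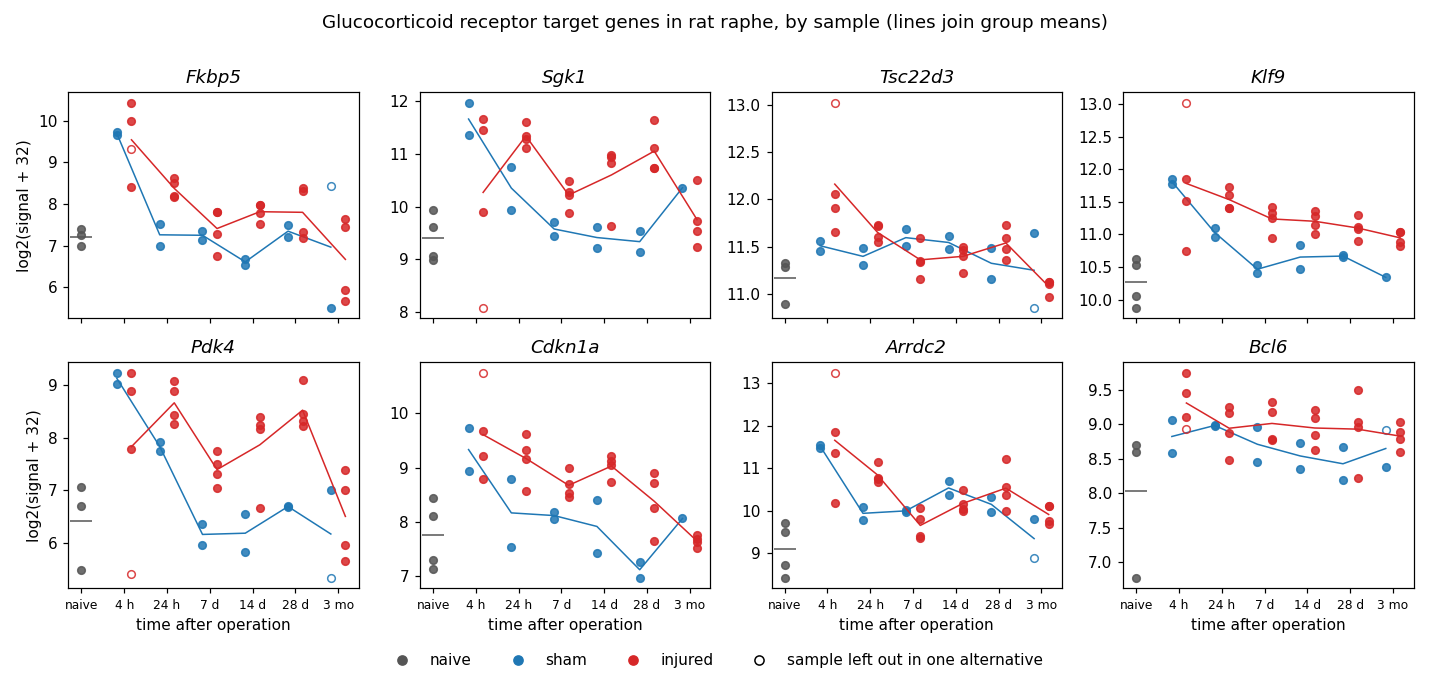
Each panel plots 1 gene in raphe, with log2(signal + 32) on the vertical axis and naive samples and the 6 times on the horizontal axis. Points are samples, lines join group means and the bar marks the naive mean. Open points are samples left out in an alternative. Both sham samples at 4 h lie above all naive samples for every gene except Bcl6, and injured samples lie above both sham samples of the same time for Klf9 from 24 h to 28 d.

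In the cortex 4 h after a sham operation, Fkbp5 and Tsc22d3 rose, and the direction was upward for all 7 members tested. Fkbp5 stood at 8.15, 7.88, 8.17 and 8.50 in naive samples and at 10.78 and 10.79 in sham samples. The rise was 6.10-fold (2.61 ± 0.40, adjusted p = 0.0015). Tsc22d3 stood at 11.52 and 11.41 in sham samples, above all naive samples (1.24 ± 0.19, 2.36-fold, adjusted p = 0.0015). Of all probe sets tested, 0.128 percent passed, against 2 of 7 members. Sgk1 stood at 9.62, 9.78, 9.11 and 9.05 in naive and at 10.53 and 10.65 in sham samples, ranges that do not overlap, and did not pass (1.20 ± 0.27, adjusted p = 0.067). Klf9 (0.75, adjusted p = 0.28), Cdkn1a (0.93, adjusted p = 0.66), Arrdc2 (0.55, adjusted p = 0.76) and Bcl6 (0.19, adjusted p = 0.96) did not pass. Fkbp5 was at an adjusted p of 0.052 without sham replicate 1 and 0.050 without sham replicate 2, and Tsc22d3 was lost without sham replicate 1 (adjusted p = 0.11).

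In the cortex 4 h after injury, 6 of 7 members rose against naive samples, where 5.31 percent of all probe sets passed. Tsc22d3 stood at 11.57, 11.52, 11.36 and 11.25 (1.19 ± 0.16, adjusted p = 8.2e-05). Fkbp5 stood at 10.60, 10.22, 10.72 and 10.27 (2.28 ± 0.32, adjusted p = 0.00017), and Sgk1 at 11.10, 10.97, 10.54 and 10.83 (1.47 ± 0.22, adjusted p = 3.0e-04). None of these injured samples overlapped a naive sample. Klf9 stood at 12.75, 12.69, 12.55 and 12.65, the narrowest group among the members at this time (1.18 ± 0.19, adjusted p = 0.00051). Cdkn1a reached 9.09, 10.02, 9.15 and 9.17 against 6.94 to 8.50 in naive samples (1.84 ± 0.37, adjusted p = 0.0052), and its second probe set rose too (1.59, adjusted p = 0.032). Arrdc2 rose 2.03-fold (1.03 ± 0.28, adjusted p = 0.030), and fell short of the threshold without any 1 of injured replicates 1 to 3 or naive replicates 1 to 3 (adjusted p from 0.052 to 0.096). Bcl6 did not pass (0.36 ± 0.40, adjusted p = 0.66). The other Klf9 probe sets stood at 0.73 (adjusted p = 0.14) and 0.14 (adjusted p = 0.90). Pdk4 was above the 40th percentile on 1 of 41 cortex arrays and was not tested there. Its values were 5.69 to 6.28 in naive, 7.31 and 7.95 in sham and 7.25 to 7.99 in injured samples at 4 h, so the operated samples lay above the naive ones. In cortex the blood cell marker mean was 10.71 and 10.83 in sham and 10.57 to 10.74 in injured samples at 4 h against 10.20 to 10.62 in naive samples. The microglia and macrophage mean was 9.36 and 9.51 in sham and 9.47 to 9.70 in injured against 9.62 to 9.90 in naive samples. Only the sham samples lay apart from the naive ones in both lists, and their part in the cortex results at 4 h was not tested.

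**Figure D2:**
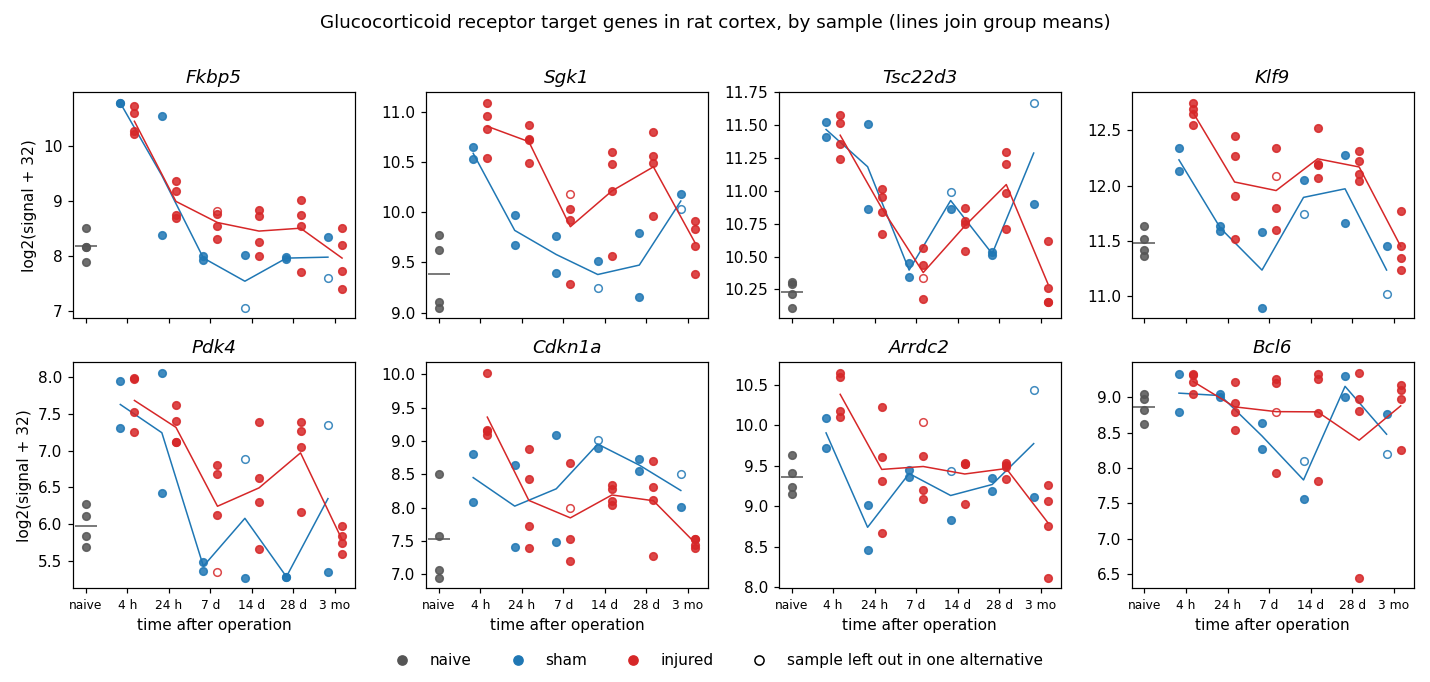
Each panel plots 1 gene in cortex, with log2(signal + 32) on the vertical axis and naive samples and the 6 times on the horizontal axis, drawn as for raphe. Sham and injured samples at 4 h overlap or lie close to each other for Fkbp5, Tsc22d3 and Sgk1 and above all naive samples. Sham replicate 1 at 24 h stands high for Fkbp5 at 10.54 and for Tsc22d3 at 11.51.

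Injured and sham samples were next compared at 4 h, which asks what the cord injury adds to the operation. In limma, 0 of 8 members passed in raphe (2 at an unadjusted p under 0.05, with 0.15 percent of all probe sets past the threshold) and 0 of 7 in cortex (0 at an unadjusted p under 0.05, with 0.016 percent). The raphe differences with the smallest p were -1.39 ± 0.57 for Sgk1 (adjusted p = 0.29) and 0.65 ± 0.24 for Tsc22d3 (adjusted p = 0.25). Without the broken-RNA replicate they were -0.66 and 0.36. In cortex Fkbp5 stood at -0.33 ± 0.40, with a 95% interval that a difference of 0 lies in, and Cdkn1a at 0.91 ± 0.46. With 2 sham samples these intervals are wide, and a p above the threshold does not show that sham and injured samples were alike.

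**Figure D3:**
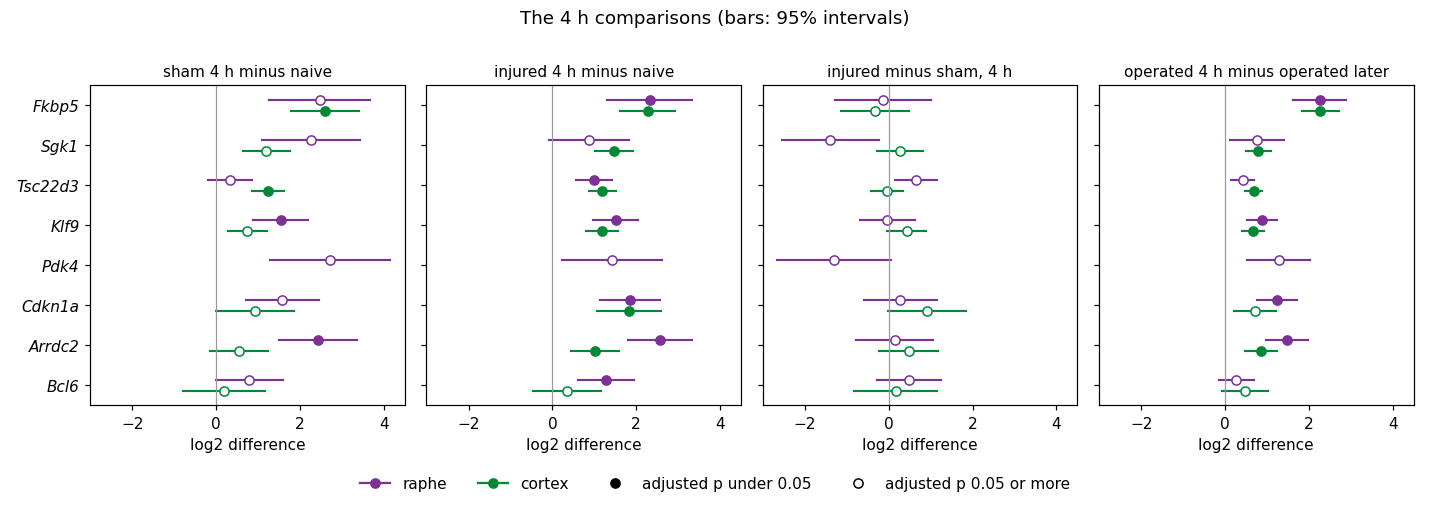
Differences of log2(signal + 32) in the 4 h comparisons, 1 panel each, with genes on the vertical axis, raphe and cortex in different colours, bars for 95% intervals and filled points for an adjusted p under 0.05. Fkbp5 lies between 2.26 and 2.61 in both regions in the panels against naive samples and against later operated samples, while most injured minus sham intervals include 0.

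Operated samples at 4 h, sham and injured averaged, were then set against operated samples of the 5 later times, a comparison that uses no naive sample. Fkbp5 showed the largest difference in both regions, 2.26 ± 0.31 in raphe (adjusted p = 0.00021) and 2.28 ± 0.22 in cortex (adjusted p = 1.1e-07). In raphe Arrdc2 (1.48, adjusted p = 0.0027), Cdkn1a (1.24, adjusted p = 0.0091) and Klf9 (0.88, adjusted p = 0.016) were also higher at 4 h, which made 4 of 8 members against 0.235 percent of all probe sets. In cortex Tsc22d3 (0.68, adjusted p = 0.00027), Sgk1 (0.79, adjusted p = 0.0033), Klf9 (0.67, adjusted p = 0.0033) and Arrdc2 (0.85, adjusted p = 0.019) were higher, which made 5 of 7 against 0.629 percent. Each of these cortex genes was higher than the mean of its later groups in 6 of 6 operated samples. Without the broken-RNA replicate, Sgk1 (1.13, adjusted p = 0.024) and Pdk4 (1.69, adjusted p = 0.0030) passed in raphe as well, and Tsc22d3 passed there without injured replicate 3 (adjusted p = 0.042). Leaving out a sham sample at 4 h lost Klf9 (adjusted p = 0.12 and 0.14), Cdkn1a (replicate 1, adjusted p = 0.17) and Arrdc2 (replicate 2, adjusted p = 0.064) in raphe. In cortex it lost Arrdc2 (adjusted p = 0.088 and 0.32), Klf9 (replicate 1, adjusted p = 0.098) and Sgk1 (replicate 2, adjusted p = 0.088), and Arrdc2 was also lost without injured replicate 2 or 3 (adjusted p = 0.051 and 0.057). The regions were compared in 1 fit. The difference between them in the 4 h response was 0.63 ± 0.32 for Arrdc2 (adjusted p = 0.45) and -0.02 ± 0.38 for Fkbp5 (adjusted p = 0.99), and 0 of 8 members passed in limma (0 at an unadjusted p under 0.05, with 0.0411 percent of all probe sets past the threshold).

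From 24 h to 3 months, 7 of the 8 members were on the injured side of sham in raphe on the mean over the 5 times, but 0 passed with all samples in limma (5 at an unadjusted p under 0.05), where 0.769 percent of all probe sets passed. Their median was 0.55 against 0.01 over all probe sets. Pdk4 had the largest difference, 1.19 ± 0.30 (adjusted p = 0.051), with a lowest, median and highest value of 5.64, 8.19 and 9.11 in 20 injured samples and of 5.33, 6.61 and 7.91 in 10 sham samples. The ranges overlap, and 18 of 20 injured samples lay above the sham mean of their time. Pdk4 was above the 40th percentile on 11 of 20 late injured arrays and 0 of 10 late sham arrays. It was thus tested only through 4 h and injured arrays, and its difference is set against a sham signal below that percentile. Klf9 stood 0.57 ± 0.15 higher (adjusted p = 0.065), at 10.82, 11.20 and 11.72 in injured and 10.34, 10.66 and 11.10 in 9 sham samples. Here 20 of 20 injured samples lay above the sham mean of their time. A second Klf9 probe set on the same array type gave 0.06 (adjusted p = 0.90), and one on type C gave 0.70 (adjusted p = 0.34). Cdkn1a stood at 0.70 ± 0.20 (adjusted p = 0.095, with 0.53 and adjusted p = 0.29 from its second probe set) and Sgk1 at 0.79 ± 0.27 (adjusted p = 0.18). Fkbp5, above the percentile on 7 of 20 late injured and 1 of 10 late sham arrays, stood at 0.53 ± 0.25 (adjusted p = 0.35). Bcl6 stood at 0.27 (adjusted p = 0.50), Arrdc2 at 0.23 (adjusted p = 0.68) and Tsc22d3 at -0.02 (adjusted p = 0.97).

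Without the 5 samples, 5 members passed in this comparison (2.88 percent of all probe sets), namely Klf9 (0.57, adjusted p = 0.0036), Pdk4 (1.02, adjusted p = 0.017), Sgk1 (0.79, adjusted p = 0.027), Cdkn1a (0.70, adjusted p = 0.028) and Fkbp5 (0.82, adjusted p = 0.043). The differences of Sgk1, Klf9 and Cdkn1a are the same with and without these samples, since none of the 5 lies in those late raphe groups on type A, and the spread is what changed. For Fkbp5, on type C, leaving them out dropped a sham sample at 3 months at 8.42 and kept only replicate 2, at 5.51. The signal of that sample, 13.47, lay below the 5th percentile of its array, 15.96. With only the broken-RNA replicate left out, Fkbp5 stood at 0.53 and did not pass (adjusted p = 0.24). Leaving out the broken-RNA replicate alone gave 4 of them (Klf9 adjusted p = 0.0033, Pdk4 0.0053, Sgk1 0.022, Cdkn1a 0.024), with 4 percent of all probe sets past the threshold. Leaving out sham replicate 2 at 3 months left type A with no sham sample at that time. The type A fit then covers 24 h to 28 d, with Sgk1 at 1.13, Klf9 at 0.56 and Cdkn1a at 0.99. At 3 months, without the broken-RNA replicate, Sgk1 (-0.605) and Cdkn1a (-0.416) lay below sham and Klf9 (0.605) above. Pdk4, on type C, then stood at 1.35, with only the replicate high in cortical neuron markers left as sham at 3 months. Pdk4 also passed without replicate 4 of the injured group at 14 d, replicate 2 at 24 h or replicate 2 at 3 months (adjusted p from 0.040 to 0.048). Meningeal and choroid plexus markers varied among the same samples. The mean over 10 of 11 meningeal and fibroblast markers was 9.38 to 10.88 in injured raphe at 28 d and 9.08 to 9.29 in sham raphe, and at 14 d it was 9.26 to 10.32 and 9.21 to 9.31. The choroid plexus mean at 14 d was 7.67 to 9.24 in injured and 7.00 to 7.23 in sham samples. The mean over 6 of 7 serotonin neuron markers was lower in injured than in sham raphe at 24 h, at 8.29 to 8.46 against 8.67 and 8.87, and at 28 d, at 8.21 to 8.67 against 8.74 and 8.82. Over all late samples the 3 lists overlapped between sham and injured raphe, and their part in these differences was not tested.

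**Figure D4:**
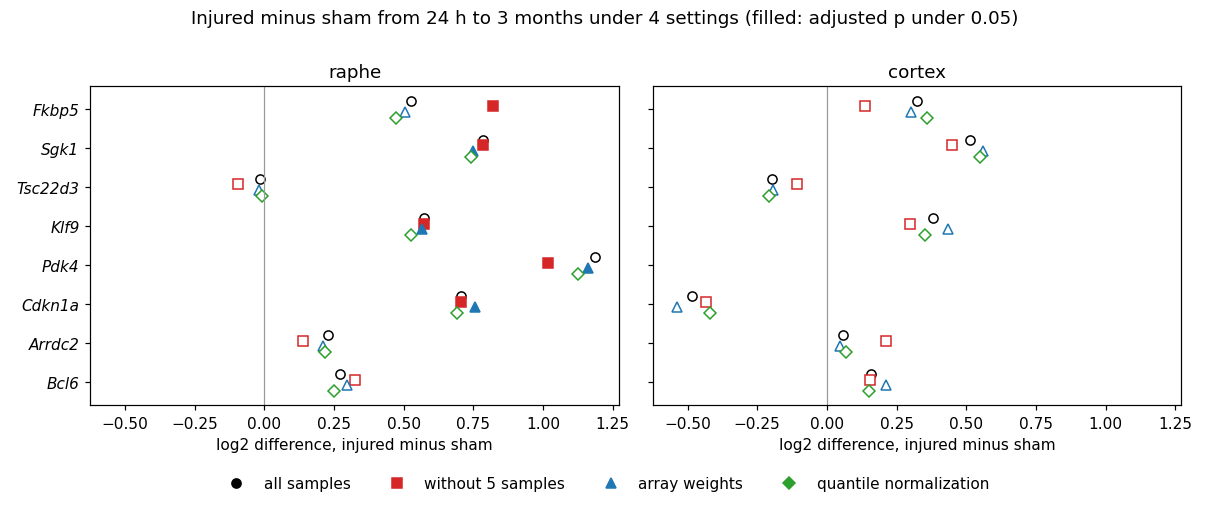
Injured minus sham difference of log2(signal + 32), averaged from 24 h to 3 months, with genes on the vertical axis, raphe on the left and cortex on the right. Symbols mark all samples, the fit without 5 samples, array weights and quantile normalization, and filled symbols have an adjusted p under 0.05. In raphe Pdk4 lies between 1.02 and 1.19 and Klf9 close to 0.57 in the first 3 settings, and no cortex symbol is filled.

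By time, the raphe difference of Sgk1 was largest at 28 d. Sgk1 stood at 11.65, 10.74, 10.73 and 11.10 in injured and at 9.53 and 9.14 in sham samples at 28 d (1.72 ± 0.57, adjusted p = 0.46). Pdk4 stood at 9.11, 8.22, 8.32 and 8.46 in injured and at 6.69 and 6.68 in sham samples (1.84 ± 0.67, adjusted p = 0.52). At 14 d the Pdk4 difference was 1.69, and 2.09 without injured replicate 4, so 28 d does not lead for Pdk4 without that sample. At 28 d the samples do not overlap, and 0 percent of all probe sets passed at this time, so no member could be told from the rest by the test. At 3 months the injured samples still lay above the sham sample for Klf9, at 10.82, 11.04, 10.88 and 11.04 against 10.34. For Sgk1 and Pdk4 they no longer stood apart. Sgk1 was at 9.24, 9.73, 9.54 and 10.51 in injured samples and at 10.36 in the sham sample, and Pdk4 at 7.39, 5.64, 5.96 and 7.01 against 5.33 and 7.00, with the first sham value from the replicate high in cortical neuron markers. Limma called 0 of 8 members at 24 h, 7 d, 14 d, 28 d and 3 months. At an unadjusted p under 0.05 there were 1, 1, 4, 3 and 0 members. The shares of all probe sets called were 0.00534, 0.801, 0.0374, 0 and 0.614 percent. Klf9 at 7 d, with 11.32, 11.25, 10.95 and 11.43 in injured and 10.53 and 10.41 in sham samples, stood at 0.77 ± 0.32 (adjusted p = 0.28). It passed without the broken-RNA replicate (adjusted p = 0.041, 4.19 percent of all probe sets) and without the 5 samples (adjusted p = 0.037, 4.71 percent). At 24 h Fkbp5 was at 8.52, 8.62, 8.20 and 8.16 in injured and at 7.52 and 7.00 in sham samples (1.11 ± 0.56, adjusted p = 1.0), again without overlap.

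In the cortex from 24 h to 3 months, limma called 0 of 7 members in injured against sham (4 at an unadjusted p under 0.05), where 0.0426 percent of all probe sets passed. Sgk1 stood 0.51 ± 0.12 higher (adjusted p = 0.10), with 9.29, 10.20 and 10.87 as the lowest, median and highest of 20 injured samples and 9.15, 9.72 and 10.19 of 10 sham samples. Klf9 stood 0.38 ± 0.10 higher (adjusted p = 0.14), with 18 of 20 injured samples above the sham mean of their time. Cdkn1a lay on the other side, at -0.49 ± 0.20 (adjusted p = 0.35). Sgk1 and Klf9 passed without sham replicate 1 at 14 d (adjusted p = 0.016 and 0.028) and without sham replicate 2 at 3 months (adjusted p = 0.034 and 0.038), each the partner of a sample that stood apart, with 3.71 and 1.41 percent of all probe sets past the threshold. Without the 5 samples they stood at 0.45 (adjusted p = 0.35) and 0.30 (adjusted p = 0.53). The test of the difference between the regions called 0 of 8 members in limma (1 at an unadjusted p under 0.05, with 0.00514 percent of all probe sets past the threshold). The largest was Cdkn1a, 1.19 ± 0.30 higher in raphe than in cortex (adjusted p = 0.20). Without sham raphe replicate 2 at 3 months, type A, on which Cdkn1a was read, had no raphe sham sample at that time. The Cdkn1a difference between the regions was then 1.47, with raphe averaged without 3 months and cortex with it. This value sets unlike times against each other, so it cannot show a difference between the regions over the same times.

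By time in the cortex, limma called 0 of 7 members at 24 h, 7 d, 14 d and 28 d, with 2, 1, 2 and 2 at an unadjusted p under 0.05 and 0.0426, 0.368, 1.81 and 0 percent of all probe sets called. Sgk1 at 24 h stood at 10.87, 10.73, 10.72 and 10.50 in injured and at 9.97 and 9.67 in sham samples (0.89 ± 0.27, adjusted p = 0.34). The descriptions of the first 2 of these injured arrays give 4 h instead of 24 h. Its 28 d samples were apart too, at 10.49, 9.96, 10.80 and 10.56 against 9.80 and 9.15 (0.98 ± 0.27, adjusted p = 1.0). At 14 d Fkbp5 stood at 0.91 ± 0.40 (adjusted p = 0.21), and passed without sham replicate 1 (adjusted p = 0.048), which leaves the sham sample with the raised low end, at 7.05. In that fit 18.7 percent of all probe sets passed, so 1 of 7 members is near the background. Sgk1 at 14 d stood at 0.83 ± 0.27 (adjusted p = 0.097) and passed with quantile normalization (1.03, adjusted p = 0.032, 2.95 percent of all probe sets). At 3 months Tsc22d3 was lower in injured samples, at 10.15, 10.15, 10.26 and 10.62 against 11.67 and 10.90 in sham samples (-0.99 ± 0.19, adjusted p = 0.0063), as 1 of 7 members against 2.47 percent of all probe sets. The higher sham value is that of the replicate with low cortical neuron markers, and without it the difference was -0.61 (adjusted p = 0.47). Arrdc2 at 3 months stood at 8.11, 9.06, 9.26 and 8.76 against 10.43 and 9.12, with the first sham value again from that replicate (-0.98 ± 0.34, adjusted p = 0.11). It passed only without the other sham sample (-1.63, adjusted p = 0.0093), where 8.49 percent of all probe sets passed.

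Late samples were also set against naive ones. The blood cell marker mean was 10.81 to 11.42 in naive raphe samples. It was 9.83 to 10.90 in late injured and 9.88 to 10.88 in late sham raphe samples. Naive raphe thus ran higher, with ranges that overlap at their ends, and the part of this in the results was not tested. In raphe, Klf9 (0.93 ± 0.20, adjusted p = 0.010) and Arrdc2 (1.13 ± 0.29, adjusted p = 0.028) were higher in injured samples from 24 h to 3 months, each above the naive mean in 20 of 20 samples, as 2 of 8 members against 2.53 percent of all probe sets. The Klf9 result is from its brightest probe set, and the other Klf9 probe sets are not given for this comparison. Late sham samples gave 0 of 8 in limma (2 at an unadjusted p under 0.05, with 1.77 percent of all probe sets past the threshold), with Arrdc2 at 0.91 ± 0.31 (adjusted p = 0.13) and Klf9 at 0.36 ± 0.23 (adjusted p = 0.46). Late sham Arrdc2 values ran from 8.89 to 10.69. Only the lowest, from the sham replicate at 3 months high in cortical neuron markers, lay within the naive range of 8.42 to 9.70. The next lowest was 9.79, above all naive samples. Arrdc2 passed in late sham samples without the broken-RNA replicate (adjusted p = 0.024), with 6.38 percent of all probe sets past the threshold. Without the 5 samples, 6 members passed in injured against naive raphe, all but Fkbp5 and Tsc22d3, where 9.69 percent of all probe sets passed. Without the broken-RNA replicate alone 6 passed as well (8.6 percent), with Sgk1 at an adjusted p of 0.0049, Pdk4 at 0.017, Cdkn1a at 0.027 and Bcl6 at 0.029. Klf9 was lost without naive replicate 1 or 4 (adjusted p = 0.051 and 0.065) and Arrdc2 without naive replicate 2 or 3 (adjusted p = 0.16 and 0.10), while Bcl6 passed without naive replicate 3 or 4 or injured replicate 1 at 28 d (adjusted p from 0.028 to 0.041).

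In cortex, Tsc22d3 was higher in late sham samples than in naive ones (0.63 ± 0.13, adjusted p = 0.034), with 10 of 10 samples on that side, as 1 of 7 members against 0.677 percent of all probe sets. Late sham samples ran from 10.34 to 11.67, with a median of 10.86, and the naive samples from 10.11 to 10.30. Leaving out sham replicate 1 at 24 h or naive replicate 1, 2 or 4 ended the call (adjusted p from 0.054 to 0.066). In late injured samples Sgk1 was higher than in naive ones (0.80 ± 0.17, adjusted p = 0.020, 18 of 20 samples), as 1 of 7 members against 0.805 percent. It was lost without naive replicate 3 or 4 (adjusted p = 0.088 and 0.12), and Klf9 and Tsc22d3 passed without injured replicate 4 at 24 h and injured replicate 2 at 28 d respectively (adjusted p = 0.049 each). For Fkbp5 the mean difference of late sham cortex from naive was 0.00 ± 0.27 (adjusted p = 1.0), which averages a 24 h mean of 9.46, with replicate 1 at 10.54, and means of 7.54 to 7.97 at the later times, against a naive mean of 8.18.

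**Figure D5:**
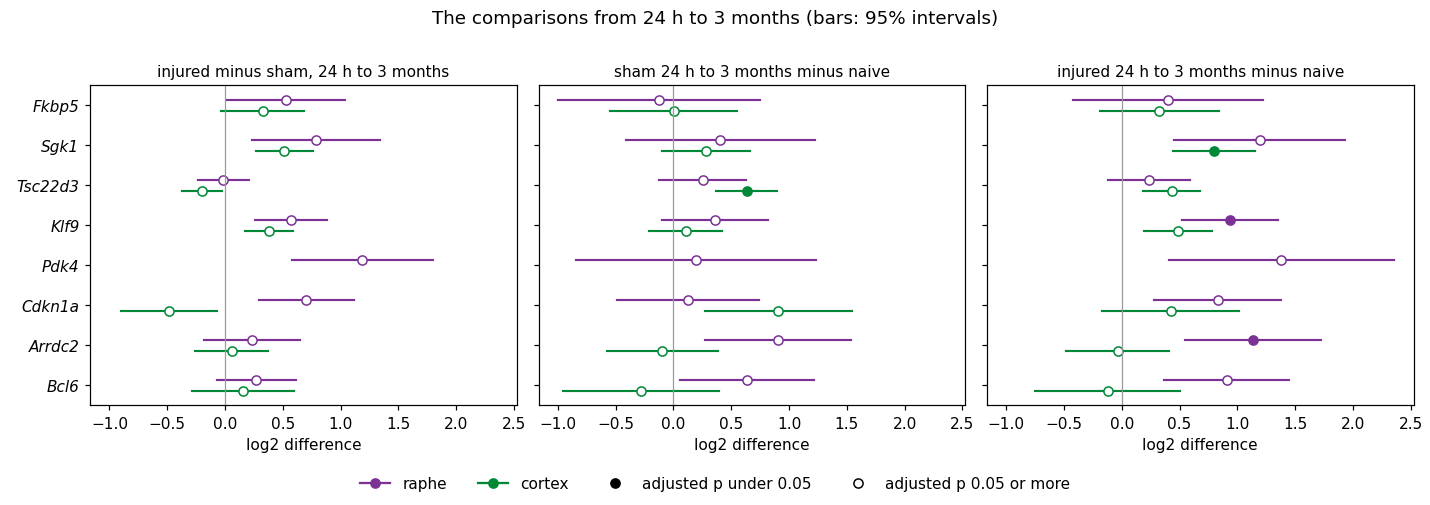
Differences of log2(signal + 32) for the times from 24 h to 3 months, in 3 panels (injured minus sham, sham minus naive, injured minus naive), with genes on the vertical axis, bars for 95% intervals and filled points for an adjusted p under 0.05. Klf9 and Arrdc2 in raphe and Sgk1 in cortex are filled in the injured minus naive panel, and Tsc22d3 in cortex in the sham minus naive panel.

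Other genes of the pathway were read from lists, with all samples included. How the list results change without the 5 samples was not read, and those of injured raphe at 4 h include the broken-RNA replicate. Of 36 other glucocorticoid-responsive genes, 27 were tested in raphe and 25 in cortex. In cortex 4 h after injury 10 rose and 1 fell against naive samples, with a list median of 0.47 against 0.02 over all probe sets, of which 5.31 percent passed. Among them were the stress-induced leucine-zipper factor gene Cebpb (1.45, adjusted p = 0.0016), the sestrin gene Sesn1 (1.43, adjusted p = 0.00074), Ddit4, an inhibitor of mTOR signalling (1.49, adjusted p = 0.0052), and the metallothionein gene Mt2A (0.98, adjusted p = 0.0027). The gene that fell was Glul, which encodes glutamine synthetase (-0.68, adjusted p = 0.015). In raphe 4 rose and 2 fell at that time, with a list median of 0.02 and 6.24 percent of all probe sets past the threshold. Cebpb (0.99, adjusted p = 0.041), Mt2A (0.84, adjusted p = 0.014) and Sesn1 (0.77, adjusted p = 0.042) were again among those that rose, and Glul fell (-1.33, adjusted p = 0.0075). In cortex 4 h against later, 4 of 25 were higher and 0 lower, against 0.629 percent of all probe sets.

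Of the receptor and its partners, 13 of 17 were tested. In cortex 4 h after injury the receptor gene Nr3c1 fell (-1.36 ± 0.36, adjusted p = 0.024) and the co-chaperone gene Ptges3 rose (1.00, adjusted p = 0.023), as 2 of 13 against 5.31 percent of all probe sets. Nr3c1 stood at 0.48 (adjusted p = 0.61) in injured raphe. Of 10 genes tested from a list of p53 targets, beside Cdkn1a, 0 rose in injured raphe at 4 h and Btg1 fell (-0.68, adjusted p = 0.042), where 6.24 percent of all probe sets passed. Each gene was read from the list it was put in, so this count need not cover every p53 target. Sesn1, which rose, was put among the glucocorticoid-responsive genes and is not in it. The count is given for raphe only. Whether p53 had a part in the Cdkn1a rise was not tested. Of 16 immediate early genes tested in cortex, 0 were higher and 5 lower at 4 h than later in operated samples, Egr1 (-1.25, adjusted p = 0.00018) and Egr2 (-1.68, adjusted p = 0.00018) among them, against 0.629 percent of all probe sets. Of 17 fatty acid oxidation and fasting genes, 0 rose in injured raphe at 4 h, and the carnitine carrier gene Slc25a20 fell (-1.39, adjusted p = 0.00061), against the same 6.24 percent.

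Over the 26 group means of both regions, centred within region, the pattern of each member was compared with 8943 other genes as a description. Fkbp5 was most like Sesn1 (r = 0.858) and Gpd1 (r = 0.852), and Pdk4 most like Gpd1 (r = 0.824) and Ddit4 (r = 0.816). Sgk1 was most like Errfi1 (r = 0.857) and Ptp4a3 (r = 0.803), and Tsc22d3 most like Fam43a (r = 0.819) and Aspa (r = 0.733). Arrdc2 was most like Armc5 (r = 0.801) and Aspa (r = 0.800), Klf9 most like Ptprf (r = 0.833) and Azin1 (r = 0.825), Cdkn1a most like Capn2 (r = 0.740) and Cnksr3 (r = 0.738), and Bcl6 most like Ppp4r3b (r = 0.860) and Stk4 (r = 0.837). Between the members r ran from 0.242 for Tsc22d3 with Bcl6 to 0.880 for Sgk1 with Pdk4. The group means share samples and, within a type, arrays, so these values describe likeness only.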

How the data were processed

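Total RNA was measured on 244 arrays of 3 types from 84 samples. The authors deposited linear intensity, above 0 for each probe set, already scaled by array (2 percent trimmed means of 800.5 to 801.3). The sources used here do not name the software behind it. Groups and times came from titles, which were followed where a description gave another time (type A arrays of injured cortex at 24 h, replicates 1 and 2, and 1 raphe array at 30 min).

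The deposited scaling was kept, 32 was added and log2 taken. Testing in a region required 4 or more arrays with the probe set above their 40th percentile (18716 in raphe, 18769 in cortex, 19453 for both). Fits of group means used limma 3.58.1 (R 4.3.3) within array type and region, with Benjamini-Hochberg adjustment over the types together. All tests were two-sided. Recovery was tested on simulated data with independent noise and no sample made to stand apart. That test cannot tell how samples that stand apart affect the calls. Precision is limited by the number of arrays, most of all in sham groups. Alternatives were other added values, filters, normalizations, array weights, the replicate number as a block, and samples left out. All members are named in the text, each by its brightest probe set on average, and the 2 genes most like each. The members, lists and comparisons were chosen with earlier results of these data known.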

Additional observations from a re-analysis of the deposited data

Results flagged for a closer look

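In 108 groups of 4 samples, 5 had a sample far from its fellows, which is about the 1 in 20 that chance gives. In injured raphe at 14 d, replicate 4 was low for Sgk1 (9.64, others 10.84 to 10.98) and for Pdk4 (6.66, others 8.16 to 8.40), genes read on different array types. In injured raphe at 3 months, replicate 2 was low for Tsc22d3 (10.96, others 11.11 to 11.13). In injured cortex, replicate 2 at 4 h was high for Cdkn1a (10.02, others 9.09 to 9.17) and replicate 4 at 14 d was low for Arrdc2 (9.02, others 9.52 to 9.53).

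Sham samples at times with no injured counterpart entered no comparison, and some lay above every naive sample. In the raphe sample at 30 min Sgk1 was at 11.30 (naive 8.98 to 9.94) and Klf9 at 11.12 (naive 9.87 to 10.62). In the cortex samples at 30 min Sgk1 was at 10.32 and 9.89 (naive 9.05 to 9.78) and Klf9 at 12.04 and 11.93 (naive 11.37 to 11.63). In the cortex sample at 72 h Tsc22d3 was at 10.54 (naive 10.11 to 10.30). These differences were not tested, and the 30 min samples have type A arrays only, on which the probe sets used for Fkbp5, Tsc22d3, Pdk4, Arrdc2 and Bcl6 do not lie.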

How the results depend on the processing

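Read from the same probe set, no member reversed a called direction under any alternative run; in injured raphe at 4 h the dimmest Klf9 probe set lay on the other side of 0 (-0.61, adjusted p = 0.59). Counts of members past the threshold that moved by over 1.5 times are given here, with all others within that. For sham at 4 h against naive in raphe (2 with all samples) the count was 1 with quantile normalization, 1 with no filter, 1 with 1 added before log2, 0 with the replicate block, 6 with array weights and 6 without the 5 samples. For injured against sham from 24 h to 3 months in raphe (0) it was 1 with a larger value added before log2, 4 with array weights and 5 without the 5 samples. For raphe injured against sham at 7 d it was 1 with array weights and 1 without the 5 samples, and at 28 d 1 with array weights. Against naive, late sham raphe went from 0 to 1 without the 5 samples and late injured raphe from 2 to 5 with array weights and to 6 without the 5 samples. In cortex, injured against sham at 14 d went from 0 to 1 with quantile normalization and at 3 months from 1 to 0 without the 5 samples. Late sham against naive cortex went from 1 to 0 with the replicate block, and late injured against naive cortex from 1 to 3 with array weights and to 2 without the 5 samples.

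With 1 sample left out at a time, the counts ran from 0 to 4 (sham 4 h against naive, raphe), 2 to 6 (operated 4 h against later, raphe), 0 to 4 (late injured against sham, raphe), 0 to 1 (7 d, raphe), 0 to 1 (late sham against naive, raphe), 1 to 6 (late injured against naive, raphe), 0 to 2 (sham 4 h against naive, cortex), 3 to 5 (operated 4 h against later, cortex), 0 to 2 (late injured against sham, cortex), 0 to 1 (14 d, cortex), 0 to 2 (3 months, cortex), 0 to 1 (late sham against naive, cortex), 0 to 2 (late injured against naive, cortex) and 0 to 1 (late injury effect between regions). Leaving the broken-RNA replicate out of raphe comparisons that do not use it was chosen after seeing the data. Where a lone sham sample remains, it is assumed to vary like the other groups. The count of 1 between regions is Cdkn1a without sham raphe replicate 2 at 3 months, a fit that sets unlike times against each other. The cause of these changes was not tested beyond the samples named.

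Same-numbered samples did not deviate together (correlations from -0.266 to 0.270 in raphe, median -0.002, and from -0.293 to 0.257 in cortex, median 0.042, over 84 pairs each), so replicate numbers were not taken to pair samples. With 2 sham samples at a time and dim Fkbp5 and Pdk4 signals in raphe, smaller differences could be missed.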
